A study of Mus musculus with 19 samples.

Results

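The genes described here encode subunits of calcium-activated potassium channels: Kcnma1, Kcnmb2 and Kcnmb4 of the big-conductance (BK) channel, and Kcnn1, Kcnn2 and Kcnn3 of the small-conductance (SK) channels. Members were the probe sets whose only gene symbol in the array's annotation is one of these 6 genes, which gave 12 of 45037 probe sets. A probe set is a group of short oligonucleotides on the array that read the same transcript. The genes were chosen by the measured intensity of Kcnma1, which was lower under CCI-779 than under placebo in wild-type mice, so that contrast is given below as values with no test.

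The samples are whole-tissue RNA of male mouse brain on 19 Affymetrix arrays, labelled as 5 SCA3 transgenic mice given CCI-779, 5 SCA3 transgenic mice given placebo, 5 wild-type (wt) mice given CCI-779 and 4 wt mice given placebo. CCI-779 (temsirolimus) inhibits the kinase mTOR, and the human disease SCA3, an inherited ataxia, arises from a lengthened glutamine repeat in the protein ataxin-3. The drug was injected into the peritoneum 3 times a week at 20 mg/kg for 6 weeks from 5 weeks of age, and placebo was injected as often. The promoter, line and repeat length of the transgene, the strain of the mice and any division of the brain into regions are not given in the sources used here. No label ties an array to a numbered animal, so each p-value covers the spread among arrays, which may be technical.

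BK channels open when the membrane depolarises and calcium rises together, and they shorten action potentials and limit transmitter release. Kcnma1 encodes the pore-forming alpha subunit, and Kcnmb2 and Kcnmb4 encode beta subunits that change its gating; beta4 is the main beta subunit of brain neurons. SK channels open through calmodulin bound to their subunits, ignore voltage and carry a slower afterhyperpolarisation. Both channel types set the firing of cerebellar Purkinje cells, a cell type studied in the spinocerebellar ataxias.

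Values are log2 of the deposited array intensity. Of the 12 probe sets, 7 had a mean of at least 4 over the 19 arrays and were tested: all 5 of Kcnma1, 1 of Kcnmb4 and 1 of Kcnn2. The other 5, of Kcnmb2, Kcnn1 and Kcnn3, stayed below that floor. The tissue label fitted its markers: all 8 neuronal genes were above the floor, and the liver genes Alb and Apoa1 were below it, at means of 2.53 and 2.59. Because this is bulk tissue, fewer cells of a type and less RNA per cell cannot be told apart. Some arrays stood apart. The wt CCI-779 replicate 1 array, whose title holds no number and which was given this one only as a name, had a 3′ minus 5′ beta-actin difference of 2.55, against 1.19 to 1.39 in the wt placebo group, and SCA3 CCI-779 replicates 2 and 5 lay away from the rest on a principal component. The hybridisation spike-ins also moved with the drug: their mean was 10.55 ± 0.09 in SCA3 CCI-779 and 11.36 ± 0.18 in SCA3 placebo (SD, n = 5 each), and 10.23 ± 0.26 in wt CCI-779 and 11.13 ± 0.29 in wt placebo (SD, n = 5 and 4). So did the GAPDH 3′ minus 5′ difference, a sign of RNA quality, which ran from -0.43 to -0.28 in SCA3 CCI-779 and from -0.53 to -0.47 in SCA3 placebo. In wt mice it ran from -0.44 to 0.28 under CCI-779 and from -0.58 to -0.50 under placebo, so the groups overlapped in neither genotype. By the beta-actin difference the groups overlapped in both genotypes. In SCA3 mice it ran from 0.88 to 1.55 under CCI-779 and from 1.26 to 1.33 under placebo. The lowest SCA3 CCI-779 values were those of replicates 2 and 5, at 0.96 and 0.88. The part of the spike-ins and of RNA quality in the drug differences below was not tested.

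The brightest Kcnma1 probe set, 1424848_at, carried the fall for which the genes were chosen. In wt mice given CCI-779, replicates 1 to 5 had 7.03, 8.72, 8.79, 7.84 and 9.003. In wt mice given placebo, replicates 1 to 4 had 9.08, 9.75, 9.21 and 9.74. Each CCI-779 array was below each placebo array, though the highest CCI-779 array and the lowest placebo array lay close together. The group means were 8.28 ± 0.83 under CCI-779 and 9.45 ± 0.35 under placebo (SD, n = 5 and 4), a log2 difference of -1.17, or 2.25-fold lower under the drug. The lowest array was the one with the high beta-actin ratio, and the difference was -0.86 without it. Some cell type marker lists separated the same wt groups by summed intensity. The microglial list ran from 2587 to 3127 in wt CCI-779 and from 3710 to 4154 in wt placebo. The astrocyte list ran from 22549 to 24347 in wt CCI-779 and from 21103 to 22299 in wt placebo. By mean log2 the astrocyte list overlapped, at 11.10 to 11.32 in wt CCI-779 and 10.99 to 11.13 in wt placebo. The microglial list did not overlap by mean log2, at 8.42 to 8.67 in wt CCI-779 and 8.85 to 8.93 in wt placebo. The Purkinje cell list overlapped, at 11640 to 18141 in wt CCI-779 and 9673 to 21008 in wt placebo. The striatal projection neuron list overlapped by sum, at 4672 to 5341 in wt CCI-779 and 4146 to 4678 in wt placebo. By mean log2 the striatal list did not overlap, at 9.29 to 9.54 in wt CCI-779 and 9.02 to 9.23 in wt placebo. The part of cell makeup in the Kcnma1 difference was not tested.

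In SCA3 mice, whose arrays the choice did not use, the same probe set overlapped between the groups. Replicates 1 to 5 had 8.37, 8.60, 8.98, 8.23 and 8.88 under CCI-779. Under placebo, SCA3 replicates 1 to 5 had 9.31, 9.04, 8.82, 8.38 and 8.58. The lowest 2 CCI-779 arrays were below every placebo array, and the highest 2 placebo arrays were above every CCI-779 array. The difference was -0.22 (SE 0.31, 95% interval -0.86 to 0.43), with a limma adjusted p of 0.679. That SE and p use a spread pooled over all 4 groups, so the wt arrays of the choice enter them. Fitted on the SCA3 arrays alone, the SE was 0.19 and the limma adjusted p 0.475. Leaving out single arrays moved the difference between -0.33, without placebo replicate 4, and -0.09, without placebo replicate 1. Whether the drug difference differs between the genotypes was not tested, because the wt contrast chose the gene.

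**Figure D1:**
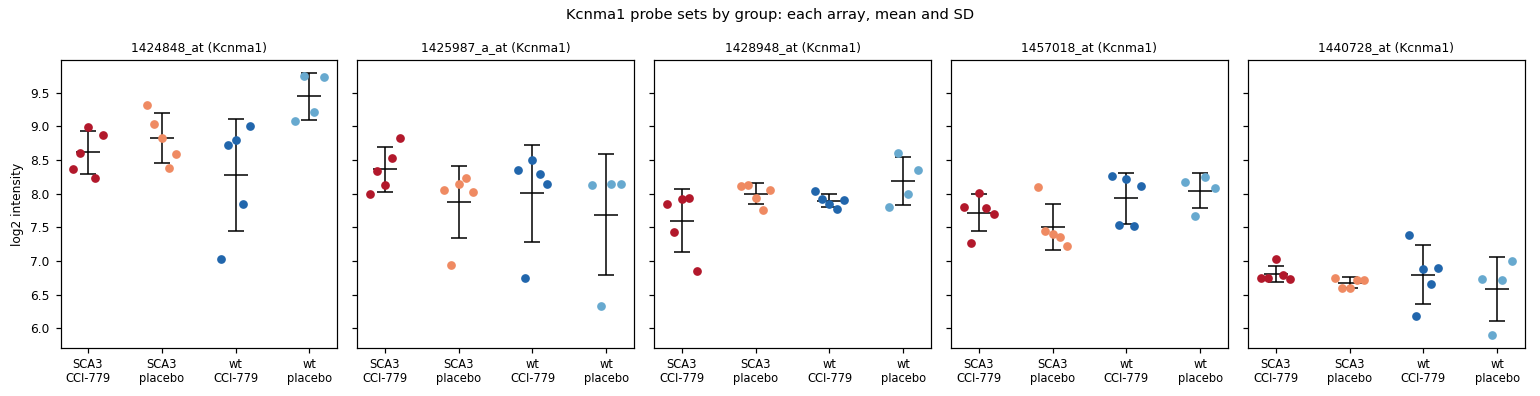
Log2 intensity of the 5 Kcnma1 probe sets (1 panel each) on every array, by group; points are arrays, and the long and short bars are the mean and SD. In the first panel the 5 wt CCI-779 arrays, at 7.03 to 9.003, all lie below the 4 wt placebo arrays, at 9.08 to 9.75; in the other 4 panels the wt groups overlap.

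The other 4 Kcnma1 probe sets did not share this pattern. In wt mice 3 of the 5 Kcnma1 probe sets were lower under CCI-779, and 1 had groups that did not overlap, against 15.0% of all tested probe sets; that one is the probe set of the choice. In SCA3 mice 2 were lower and 3 higher under CCI-779. With the 5 probe sets averaged, Kcnma1 differed by -0.21 in wt mice and by 0.04 in SCA3 mice, where the adjusted p was 0.858. Where on the transcript each probe set lies was not analysed here. The _a in one name is the maker's mark for probes shared by several transcripts of a gene.

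The probe set 1428948_at had the lowest p of the members in SCA3 mice. It had 7.85, 7.43, 7.92, 7.94 and 6.85 in SCA3 CCI-779 replicates 1 to 5, against 8.11, 8.13, 7.94, 7.75 and 8.06 in SCA3 placebo replicates 1 to 5. The low mean under the drug came mainly from replicates 2 and 5, which were below every placebo array. The difference was -0.40 (SE 0.18), with an unadjusted p of 0.0398 and a limma adjusted p of 0.143; it was -0.22 without replicate 5 and -0.10 without replicates 2 and 5. In wt mice this probe set ran from 7.78 to 8.04 under CCI-779 and from 7.80 to 8.60 under placebo, a difference of -0.29.

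The probe set 1425987_a_at was split by single arrays. SCA3 CCI-779 replicates 1 to 5 had 7.99, 8.33, 8.13, 8.54 and 8.83, and SCA3 placebo replicates 1 to 5 had 8.06, 6.93, 8.14, 8.23 and 8.02. The drug difference was 0.49 (SE 0.37, limma adjusted p 0.407), and 0.25 without SCA3 placebo replicate 2. In wt mice the values were 8.36, 6.74, 8.50, 8.29 and 8.14 under CCI-779, and 8.13, 6.34, 8.14 and 8.14 under placebo. Replicate 2 was far below the rest in SCA3 placebo, wt CCI-779 and wt placebo, and lay inside the range of its group in SCA3 CCI-779. The wt difference was 0.32 with all arrays and -0.13 without wt placebo replicate 2.

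In SCA3 mice 1457018_at averaged 7.71 ± 0.27 under CCI-779 and 7.51 ± 0.34 under placebo (SD, n = 5 each), a difference of 0.21 (SE 0.19, limma adjusted p 0.492). Placebo replicate 1 was the highest of its group, and without it the difference was 0.36; the range over left-out single arrays was 0.14 to 0.36. It averaged 7.93 ± 0.37 in wt CCI-779 and 8.04 ± 0.26 in wt placebo, a difference of -0.12. For 1440728_at the SCA3 means were 6.81 ± 0.12 under CCI-779 and 6.68 ± 0.08 under placebo. The difference was 0.13 (SE 0.19, limma adjusted p 0.691), and 0.07 without CCI-779 replicate 3. Fitted on the SCA3 arrays alone, 1440728_at had an SE of 0.07 and a limma adjusted p of 0.238. Its wt difference was 0.21, and -0.02 without wt placebo replicate 2, the lowest array at 5.90.

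Over the 4 groups together, the Kcnma1 probe sets varied more around their group means than most tested probe sets did. The SD around the group means was 0.52 for 1424848_at and 0.64 for 1425987_a_at, at the 97.2 and 98.5 percentiles of all tested probe sets, against a median of 0.165 over all of them. The other 3 Kcnma1 probe sets lay at the 87.0 to 88.3 percentiles, Kcnn2 at 53.3 and Kcnmb4 at 40.8. The spread was uneven between groups. For 1424848_at the SD was 0.83 in wt CCI-779 and 0.32 to 0.37 in the other groups. For 1440728_at it was 0.43 in wt CCI-779 and 0.48 in wt placebo, but 0.12 in SCA3 CCI-779 and 0.08 in SCA3 placebo. After each group's mean was subtracted, 4 of the 10 pairs of Kcnma1 probe sets correlated below 0 over the 19 arrays. The highest pair by Pearson's measure was 1425987_a_at with 1440728_at, at a Pearson correlation of 0.75, which was 0.32 without the 2 farthest arrays. The pair 1457018_at with 1440728_at had a Pearson correlation of 0.65, which was 0.76 without the 2 farthest arrays. Its Spearman correlation was 0.74, against 0.51 for the first pair. The probe set 1424848_at correlated with the other 4 at -0.37 to 0.06. All of these points share their arrays, and the values are a description.

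Kcnmb4, the neuronal BK beta subunit, ran from 9.86 to 10.17 on all arrays but 2. Its probe set 1449471_at had 9.97, 10.44, 10.06, 9.99 and 10.46 in SCA3 CCI-779 replicates 1 to 5, against 10.04, 9.96, 10.17, 10.13 and 9.99 in SCA3 placebo replicates 1 to 5. The 2 high arrays were SCA3 CCI-779 replicates 2 and 5, the same pair that was low for Kcnma1 1428948_at. The difference was 0.13 (SE 0.09, 95% interval -0.07 to 0.32, limma adjusted p 0.370), and it was -0.05 without that pair. In wt mice Kcnmb4 had 10.07, 9.86, 9.94, 9.96 and 9.999 under CCI-779, and 10.17, 10.09, 9.94 and 10.01 under placebo, a difference of -0.09.

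Kcnn2 encodes SK2, an SK subunit of many central neurons. Its probe set 1448927_at had 9.69, 9.25, 9.53, 9.28 and 9.40 in SCA3 CCI-779 replicates 1 to 5, and 9.63, 9.54, 9.29, 9.37 and 9.38 in SCA3 placebo replicates 1 to 5. The groups covered much the same range, and the difference was -0.01 (SE 0.11, 95% interval -0.23 to 0.21, limma adjusted p 0.967). In wt mice Kcnn2 had 9.997, 9.73, 9.37, 9.71 and 9.60 under CCI-779, against 9.68, 9.53, 9.60 and 9.47 under placebo. That difference was 0.11, and 0.03 without wt CCI-779 replicate 1, the highest array.

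Under CCI-779 in SCA3 mice, then, limma called 0 of the 7 tested member probe sets at an adjusted p of 0.05, against 15.2% of all tested probe sets. At an unadjusted p of 0.05 the count was 1. The groups did not overlap for 0 of the 7, against 13.2% of all tested probe sets. The median difference over the 7 was 0.13 in SCA3 mice and -0.09 in wt mice, beside 0.01 and 0.05 over all tested probe sets.

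**Figure D2:**
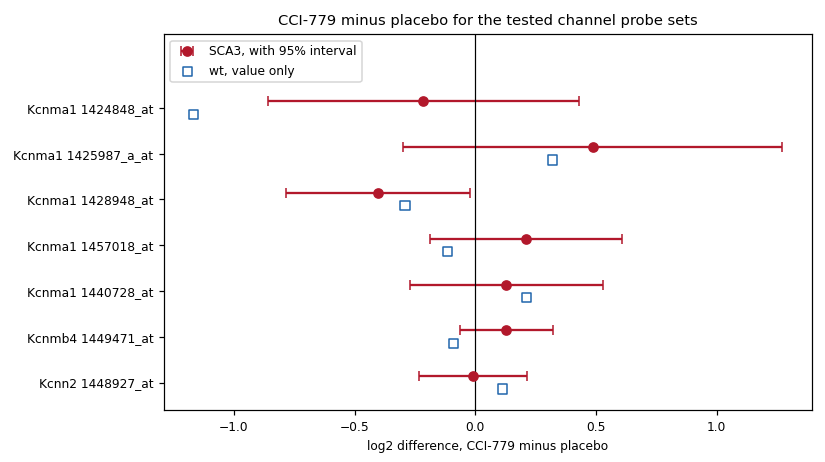
Log2 difference, CCI-779 minus placebo, for the 7 tested probe sets; filled circles are SCA3 mice with the 95% interval, and open squares are wt mice, given as values only. The wt value of 1424848_at, at -1.17, is the farthest from 0, and of the SCA3 intervals, which are not adjusted for the number of probe sets, that of 1428948_at leaves out 0.

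The dim probe sets stayed near the bottom of the scale on nearly every array. Kcnmb2, whose beta2 subunit inactivates BK channels, had 3.59 to 3.84 on one probe set, 1426322_a_at, and 2.31 to 2.93 on the other, 1431844_at. Kcnn1, which encodes SK1, had 3.19 to 4.16 on 1449536_at and 3.01 to 3.44 on 1419617_at. On 1449536_at, 1 array of the 19 was above 4, and it was in the SCA3 CCI-779 group. Kcnn3, which encodes SK3, had 2.65 to 2.72 on 1421632_at, the narrowest range of the members. No fold change is given for these, and their low signal does not show that the genes were silent.

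**Figure D3:**
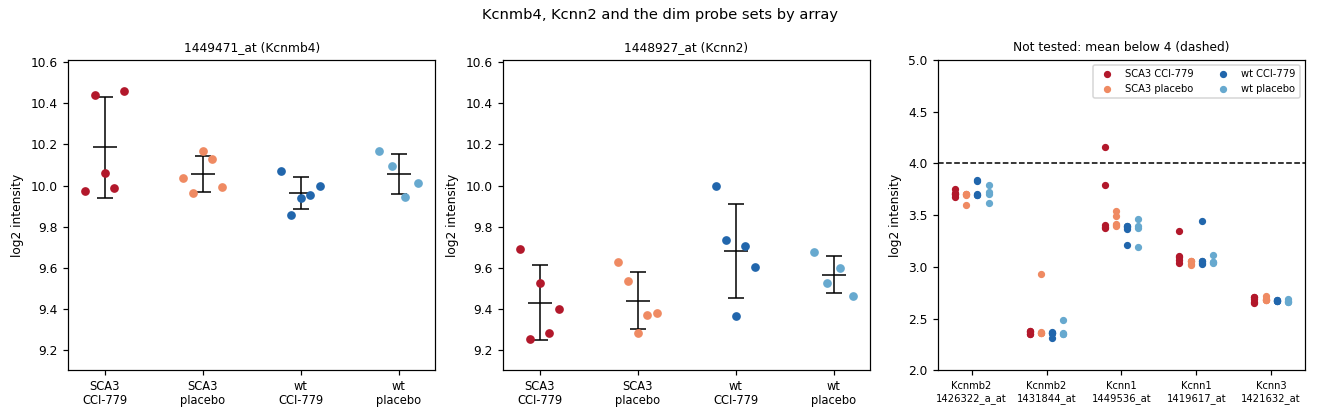
Log2 intensity of Kcnmb4 and Kcnn2 (first 2 panels, with mean and SD) and of the 5 dim probe sets (last panel, with the floor of 4 dashed) on each array, by group. The Kcnmb4 arrays at 10.44 and 10.46 are SCA3 CCI-779 replicates 2 and 5, and 1 Kcnn1 array lies above the floor, at 4.16.

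Between the genotypes, Kcnmb4 and Kcnn2 were the members that could be tested, because the wt arrays had been used to choose Kcnma1. Under placebo limma called 0 of the 2, against 0.00977% of all tested probe sets, and none had an unadjusted p under 0.05. Kcnmb4 averaged 10.06 ± 0.09 in SCA3 placebo and 10.06 ± 0.10 in wt placebo (SD, n = 5 and 4; limma adjusted p 1). Kcnn2 averaged 9.44 ± 0.14 in SCA3 placebo and 9.57 ± 0.09 in wt placebo, a difference of -0.13 (SE 0.11, limma adjusted p 0.982). Under CCI-779 limma also called 0 of the 2, against 0.00977% of all tested probe sets, though both had an unadjusted p under 0.05. There Kcnmb4 averaged 10.19 ± 0.24 in SCA3 mice and 9.97 ± 0.08 in wt mice (SD, n = 5 each), a difference of 0.22 (SE 0.09, limma adjusted p 0.277). Kcnn2 averaged 9.43 ± 0.18 in SCA3 mice and 9.68 ± 0.23 in wt mice, a difference of -0.25 (SE 0.11, limma adjusted p 0.281). Without the 3 arrays that stood apart, these differences were 0.07 for Kcnmb4 and -0.10 for Kcnn2.

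For Kcnma1 the genotype values are a description, and they use the same wt arrays as the drug values above. On 1424848_at, SCA3 minus wt was -0.62 under placebo, where 4 of the 5 SCA3 arrays were below every wt array. Under CCI-779 it was 0.34, and the groups overlapped. On 1457018_at it was -0.54 under placebo and -0.21 under CCI-779. The other 3 Kcnma1 probe sets differed by -0.19 to 0.19 under placebo and by -0.30 to 0.36 under CCI-779.

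A wider list held 33 genes: those whose products act with these channels, and other potassium channel subunits gated by calcium or sodium. Of these, 25 had a probe set naming that gene alone and 18 were bright enough to test. In SCA3 mice 4 of the 18 were higher under CCI-779 and 1 was lower (limma, Benjamini-Hochberg over all probe sets), where 11.0% of all tested genes were higher and 6.09% lower. The median difference of the 18 was 0.04, beside 0.00 over all tested genes. All 4 that rose were pore subunits of voltage-gated calcium channels, the source of much of the calcium that opens BK and SK channels. The other tested pores of that kind, Cacna1c, Cacna1d and Cacna1e, did not pass, at 0.24, -0.12 and 0.08 in SCA3 mice. The group of calcium channels and store channels had 9 tested members, with a median of 0.24 in SCA3 mice and 0.42 in wt mice. Over all tested genes the medians were 0.00 and 0.08.

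Cacna1a, the pore of the P/Q-type channel that dominates in Purkinje cells, had 8.68, 8.94, 8.66, 8.61 and 9.01 in SCA3 CCI-779 replicates 1 to 5, against 8.38, 8.32, 8.32, 8.20 and 8.18 in SCA3 placebo replicates 1 to 5. The groups did not overlap, and the difference was 0.50 (SE 0.12, limma adjusted p 0.00874). Cacna1b, the N-type pore, averaged 10.06 ± 0.13 under CCI-779 and 9.64 ± 0.24 under placebo (SD, n = 5 each; limma adjusted p 0.0172). The T-type pores rose as well: Cacna1g averaged 8.76 ± 0.24 under CCI-779 and 8.18 ± 0.17 under placebo (limma adjusted p 0.0147). Cacna1h averaged 8.32 ± 0.33 under CCI-779 and 7.67 ± 0.35 under placebo (limma adjusted p 0.0259). In wt mice, with no test, the same 4 genes differed by 0.42 to 0.67.

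The calcium channel values depended on the probe set and on 2 arrays. Without SCA3 CCI-779 replicates 2 and 5, Cacna1a differed by 0.37 (limma adjusted p 0.0934) and Cacna1g by 0.45 (limma adjusted p 0.116), so neither passed, while Cacna1b and Cacna1h still did. Cacna1h in turn missed the threshold in 6 of 30 alternatives, among them leaving out replicate 1 or 2 of SCA3 CCI-779 or replicate 2 or 4 of SCA3 placebo (limma adjusted p 0.0505 to 0.071). The second Cacna1a probe set differed by 0.42 with a limma adjusted p of 0.112. Of the 3 other tested Cacna1b probe sets none passed, with differences of -0.04, 0.37 and 0.52. Beside these rises, 2 of the 4 striatal projection neuron markers, Drd2 and Ppp1r1b, were also higher. The summed intensity of that list ran from 4556 to 5888 in SCA3 CCI-779 and from 4086 to 5008 in SCA3 placebo. Of the 5 microglial markers, Csf1r and C1qb were lower, while Cx3cr1, Aif1 and C1qa did not pass. That list summed to 2624 to 3412 in SCA3 CCI-779 and 3643 to 4145 in SCA3 placebo. Only Slc1a2 of the 5 astrocyte markers passed, and it was higher. That list summed to 24020 to 26739 in SCA3 CCI-779 and 19985 to 22934 in SCA3 placebo. Only Cnp of the 4 oligodendrocyte markers passed, and it was lower. That list summed to 52869 to 56639 in SCA3 CCI-779 and 56744 to 69236 in SCA3 placebo. By mean log2 the astrocyte and oligodendrocyte lists overlapped. The hippocampal and cortical glutamatergic list summed to 2636 to 7307 in SCA3 CCI-779 and 2311 to 3038 in SCA3 placebo, and none of its markers passed. Of the 8 neuronal genes Eno2 was higher and Rbfox3 lower, and the rest did not pass. None of the Purkinje cell or granule cell markers passed. The part of cell makeup in these rises was not tested.

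The list's one fall was Ppp2r1a, the scaffold subunit of protein phosphatase 2A, an enzyme bound to SK channels that raises their calcium sensitivity by removing phosphate from the bound calmodulin. It differed by -0.16 (limma adjusted p 0.0473), and none of its 4 other tested probe sets passed. The call was lost in 19 of 30 alternatives, with limma adjusted p-values up to 0.262, among them most of those that left out a single array. Csnk2a1 and Csnk2a2, the catalytic subunits of the kinase CK2, which adds that phosphate and lowers the sensitivity, did not pass. The BK regulators were below the threshold as well: Crbn, which holds back BK channels, differed by -0.17 (limma adjusted p 0.054), and Fmr1 by 0.04. The sodium-activated potassium channels Kcnt1 and Kcnt2 differed by 0.05 and -0.28, and neither passed. The BK gamma subunits Lrrc26, Lrrc38 and Lrrc52 were below the floor. Between the genotypes 0 of the 18 passed, under placebo or under CCI-779.

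**Figure D4:**
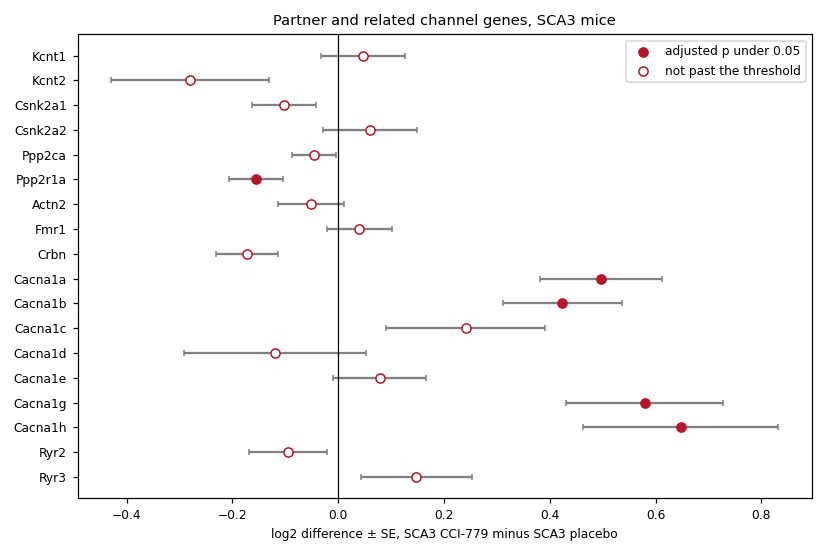
Log2 difference with its SE, SCA3 CCI-779 minus SCA3 placebo, for the 18 tested genes of the wider list (n = 5 each). Filled circles passed a limma adjusted p of 0.05. The filled circles to the right of 0 are Cacna1a, Cacna1b, Cacna1g and Cacna1h, and the filled circle to the left is Ppp2r1a.

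The 5 genes most like Kcnma1 1424848_at over the 19 arrays, after each group's mean was subtracted, were Snw1, Adi1, Rufy3, Luc7l2 and Ipw. Their Pearson correlations with it were 0.86 to 0.87 and their Spearman correlations 0.77 to 0.90. Without the 2 arrays farthest from the median, wt CCI-779 replicates 1 and 5, the Pearson values were 0.73 to 0.83. None of the 5 passed the SCA3 drug test, with limma adjusted p-values of 0.185 to 0.944. In wt mice 3 of them were lower under CCI-779, Ipw by -0.86, Luc7l2 by -0.68 and Snw1 by -0.52, while Adi1 and Rufy3 differed by 0.19 and 0.23.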

How the data were processed

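The deposited values are intensity on a linear scale. The submitters' processing notes name GCRMA, a method that background-corrects, quantile-normalises and summarises the probes of a set. No version was given, and GCRMA can pull the values of dim probe sets together. The 64 control probe sets were left out of the tests. Log2 of the deposited intensity was computed, and the 20473 probe sets with a mean of at least 4 over the 19 arrays were fitted with limma 3.58.1 (R 4.3.3) as 4 group means, with two-sided moderated tests, Benjamini-Hochberg adjustment over all of them in each contrast and a threshold of 0.05. All 4 groups shared 1 estimate of the spread, so the wt arrays also entered the SE and p of the SCA3 drug test.

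Symbols came from the platform annotation: 34945 probe sets had 1 symbol, 932 several and 9160 none. The members and the lists were chosen with earlier results of these data known. Every member is reported; a gene of the wider list is read by its brightest tested probe set and named where it passed in SCA3 mice, and the other members of that list that are named were picked for their roles. Kcnma1 was not tested in contrasts with wt arrays. Precision is limited by 4 or 5 arrays a group. The fit was tested on simulated data.

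One wt CCI-779 array has no number in its title; it is called replicate 1 here and was a level of its own in the replicate block. Whether the numbers in the other titles pair the samples was not settled. Over 24 pairs with the same number, deviations correlated at a median of 0.03 (-0.31 to 0.29), and 9 were over 0.1. Over 97 pairs with other numbers, the median was -0.005 (-0.37 to 0.32), and 30 were over 0.1. These medians cannot exclude a pairing seen in single genes: Ptprg was lowest on replicate 2 in every group. The alternatives were other filters, normalisations, weights and fits, the replicate block, gene means and left-out arrays.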

Additional observations from a re-analysis of the deposited data

Results flagged for a closer look

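For 28 groups of arrays (7 tested probe sets in 4 groups), an array was looked for whose gap to its neighbour exceeded Dixon's 95% critical value. Chance gives about 1 in 20 for independent, normally spread values. These groups share arrays, and wt placebo replicates 3 and 4 had the same value on 1425987_a_at, 8.1372. The count is therefore not set against that rate. Such arrays numbered 5, all on Kcnma1, which held 5 of the 7 tested probe sets. On 1425987_a_at replicate 2 stood below the rest in 3 groups: 6.93 in SCA3 placebo, where the others had 8.02 to 8.23, 6.74 in wt CCI-779, where the others had 8.14 to 8.50, and 6.34 in wt placebo, where the others had 8.13 to 8.14. On 1457018_at SCA3 placebo replicate 1 stood above the rest at 8.09, where the others had 7.22 to 7.45. On 1440728_at SCA3 CCI-779 replicate 3 stood above the rest at 7.02, where the others had 6.73 to 6.79.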

How the results depend on the processing

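Over 30 alternatives for 22 results, 584 of 656 values kept their direction and their side of the threshold or, for counts and untested values, moved little, and 17 reversed. The member counts were 0 in all 30 for each of the 3 tested contrasts. With a gene's probe sets averaged, Kcnma1 differed by 0.041 in SCA3 mice and -0.21 in wt mice. For the single probe set 1424848_at, leaving out single arrays gave -0.33 to -0.09 in SCA3 mice and -1.35 to -0.86 in wt mice. Kcnn2 in SCA3 mice turned to 0.081 with array weights and 0.061 without SCA3 CCI-779 replicates 2 and 5, also with wt CCI-779 replicate 1 left out; in those last settings Kcnmb4 turned to -0.048. Leaving out single arrays gave -0.074 to 0.039 for Kcnn2, above 0 without replicate 2 or 4 of SCA3 CCI-779 and without replicate 1 or 2 of SCA3 placebo. Kcnmb4 between the placebo groups turned to -0.013 under quantile normalisation and -0.014 under median centring. Leaving out single arrays gave -0.035 to 0.040 for it, below 0 without replicate 3 or 4 of SCA3 placebo or of wt placebo. With the replicate number as a block it was -0.022, Kcnma1 1424848_at in SCA3 mice was -0.22, and the member counts stayed at 0. Genes of the wider list that were higher in SCA3 mice numbered 2 to 6, and lower ones 0 to 3. Cacna1h did not pass in 6 alternatives (limma adjusted p up to 0.071) and Ppp2r1a in 19 (up to 0.262). Of the 20473 tested probe sets, those called in SCA3 mice split as 2094 higher and 1013 lower. The split was 1817 and 1613 after quantile normalisation and 1587 and 1961 after median centring. Without SCA3 CCI-779 replicates 2 and 5 it was 914 and 289. Median centring moved the wt drug median of all probe sets to -0.05, against 0.05 as deposited. The causes were not tested.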

Other observations

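Probe sets like Kcnma1 1425987_a_at were looked for after its values were seen. Over the 19 arrays, with group means subtracted, 6 tested probe sets with a known position correlated with it at 0.8 or more in size. Of these, Ptprg (0.88) and Nkiras1 (0.84) lie on chromosome 14, as Kcnma1 does in the RefSeq annotation. Chromosome 14 holds 3.54% of the 17830 located probe sets. The others were Hbs1l (-0.85, chromosome 10), Nat8f3 (-0.85, chromosome 6), Kat7 (-0.82, chromosome 11) and Fryl (0.82, chromosome 5). Without wt placebo replicate 2 and wt CCI-779 replicate 2 the correlations of Ptprg and Nkiras1 were 0.77 and 0.78. Those of Hbs1l, Nat8f3, Kat7 and Fryl were then -0.68, -0.59, -0.41 and 0.61. Ptprg, a receptor tyrosine phosphatase, was lowest on replicate 2 in every group: 9.08 in SCA3 CCI-779 (others 9.55 to 9.62), 8.45 in SCA3 placebo (others 9.38 to 9.54), 8.90 in wt CCI-779 (others 9.61 to 9.99) and 8.50 in wt placebo (others 9.45 to 9.54). Nkiras1, an inhibitor of NF-kappaB signalling, had 11.11 on replicate 2 of SCA3 placebo (others 11.37 to 11.55), 11.13 in wt CCI-779 (others 11.26 to 11.46) and 11.16 in wt placebo (others 11.39 to 11.50). In SCA3 CCI-779 its replicate 2, at 11.36, lay inside the range of the others. Hbs1l and Nat8f3, on other chromosomes, were highest on replicate 2 in SCA3 placebo, wt CCI-779 and wt placebo. The part of the shared chromosome was not tested.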
